A study of Homo sapiens with 6 samples.

Results

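The WNT pathway genes described here were 51 of the 25343 gene lines in the count table of this series. They were taken by symbol: all WNT ligand, Frizzled (FZD), Dickkopf (DKK) and SFRP symbols in the table, the co-receptors LRP5 and LRP6, the inhibitor WIF1, the ligases RNF43 and ZNRF3, beta-catenin (CTNNB1) with AXIN1, AXIN2, NKD1 and NKD2, and the factors LEF1, TCF7, TCF7L1 and TCF7L2. The cells were A375, an established human line from a malignant melanoma, in its parental form in both groups. One group received panobinostat, an inhibitor of histone deacetylases, at 50 nM for 24 h, and the other the same volume of PBS (vehicle). Bulk RNA was sequenced from 3 libraries per group.

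WNT proteins are secreted, lipid-modified ligands that bind Frizzled receptors together with LRP5 or LRP6. Without a signal, a complex of AXIN, APC, GSK3 and casein kinase marks beta-catenin for destruction, and with a signal beta-catenin accumulates and joins TCF/LEF factors on target genes. Several of those targets, among them AXIN2, NKD1, RNF43, ZNRF3 and DKK1, restrain the pathway in turn. WNT5A mostly acts without beta-catenin, through receptors such as ROR2, and in melanoma it is known for its link to motility and invasion.

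Library totals were 32293283 to 38944399 counts, and libraries differed far less within a group than between groups. Within each group replicate 3 differed most from the other libraries, by 5.3 to 9.6 in chi-square per degree of freedom, against 1.96 and 2.41 for the remaining pairs and at least 333 between groups. Without panobinostat replicate 3 the members gave 23 higher and 14 lower, and without vehicle replicate 3 they gave 24 higher and 14 lower. A count of 3 in a library, taken as the floor of detection, corresponded to 0.0774 to 0.0928 CPM, counts per 1e+06 counts of the TMM-scaled library. The labels do not state if replicates came from separate cultures, and p-values here reflect spread among these libraries alone, possibly technical. In bulk RNA, fewer cells of a kind and less RNA per cell cannot be told apart. Of 9 melanoma and melanocyte markers 7 had counts in each group, with a summed level of 645 to 709 CPM in panobinostat libraries and 986 to 1100 CPM in vehicle libraries, while MLANA and TYR had 0 counts in all libraries. Of the 6 tested 4 were called lower (66.7%) and 2 higher (33.3%), beside 41% and 41.8% of all genes tested. SOX10 held most of that sum, at 368 ± 21.8 CPM with panobinostat and 813 ± 56.3 CPM with vehicle. S100B, MITF and S100A1 were also lower, with log2 changes of -2.65, -0.69 and -0.67. PMEL went the other way, at 194 ± 9.46 CPM with panobinostat and 0.628 ± 0.118 CPM with vehicle. TYRP1 was also called higher, on 47 counts with panobinostat and 26 with vehicle. The leukocyte markers, 5 in number, summed to 3.58 to 3.9 CPM in panobinostat and 4.96 to 6.17 CPM in vehicle libraries, and 6 epithelial markers to 1.86 to 2.43 CPM in panobinostat and 3.22 to 3.98 CPM in vehicle libraries. Of the epithelial markers KRT14 was lower, at 0.779 ± 0.0921 CPM with panobinostat and 3.17 ± 0.321 CPM with vehicle, while EPCAM, at 0.69 ± 0.152 CPM with panobinostat and 0.0624 ± 0.0134 CPM with vehicle, and KRT19 were called higher. Of the leukocyte markers LYZ held most of the sum and was lower, at 3.02 ± 0.255 CPM with panobinostat and 5.17 ± 0.67 CPM with vehicle. CD14 was called higher, at 0.574 ± 0.0667 CPM with panobinostat and 0.158 ± 0.0632 CPM with vehicle. PTPRC had 4 counts over the panobinostat libraries and 0 over the vehicle libraries, and CDH1 7 with panobinostat and 0 with vehicle. Endothelial markers, 3 in number, summed to 4.86 to 5.52 CPM in panobinostat and 1.5 to 1.84 CPM in vehicle libraries. Most of that difference was PECAM1, at 2.91 ± 0.293 CPM with panobinostat and 0.0981 ± 0.0784 CPM with vehicle. VWF averaged 2.2 ± 0.141 CPM with panobinostat and 1.57 ± 0.118 CPM with vehicle, and CDH5 was not tested. EPCAM, KRT19, CD14 and PECAM1 passed the filter on low counts through the panobinostat libraries alone, so they had to differ. The part of these markers in the results was not tested.

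Of the 51 members 41 had enough counts to be tested, and 10 did not. With panobinostat 23 rose and 15 fell at an adjusted p under 0.05 (edgeR's quasi-likelihood test, adjusted over all genes tested), and 3 did not pass. Most genes of these cells changed: 82.8% of the 15499 genes tested were called, 41.8% higher and 41% lower, beside 56.1% of the tested members higher and 36.6% lower. Larger changes were found for 17 members at least 2-fold higher and 10 at least 2-fold lower, where 18.9% and 11.7% of all genes tested passed the same limits. CPM ranges of panobinostat and vehicle libraries were apart for 39 of the 41 tested members, against 83.4% of all genes tested. The median log2 change was 0.41 over the tested members and 0.01 over all genes tested. Of the 41, 9 (7 ligands, WIF1 and RNF43) passed the filter on low counts through the panobinostat libraries alone and 2 (WNT5B and SFRP5) through the vehicle libraries alone, so these 11 had to differ, and counts over the tested members carry that choice. Log2 changes below are panobinostat minus vehicle ± SE, and levels are CPM, as mean ± SD over n = 3 libraries where averaged.

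**Figure D1:**
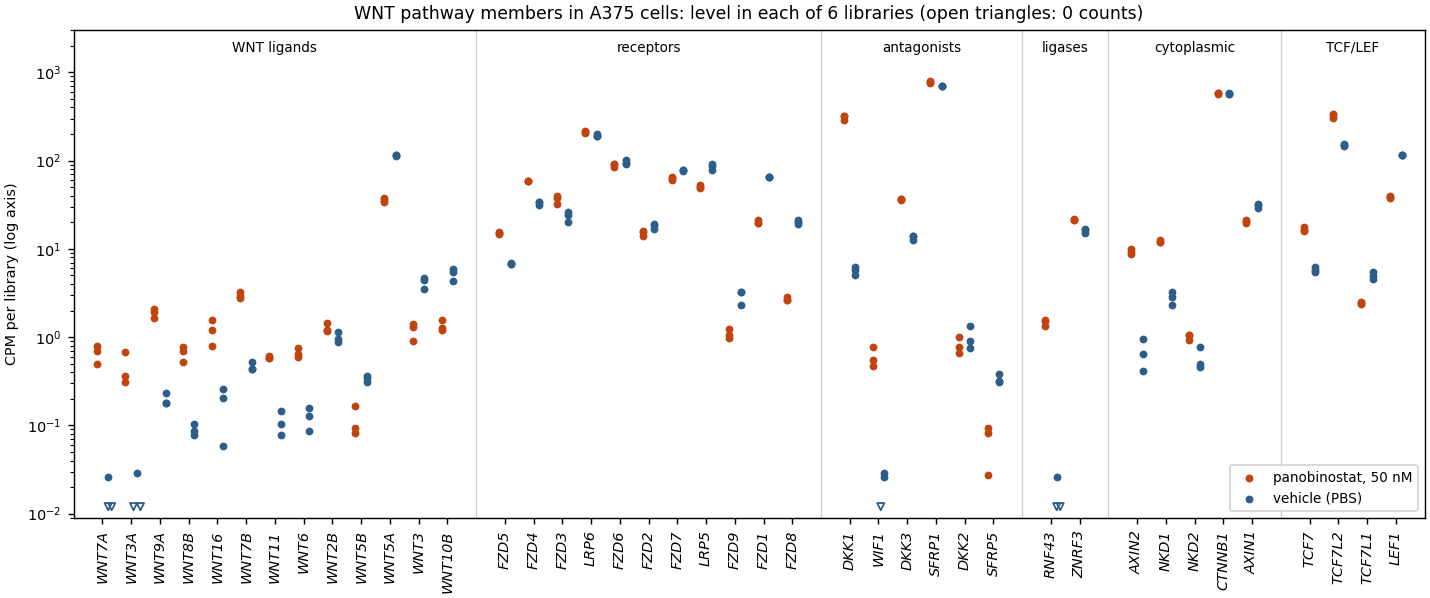
CPM of the 41 tested WNT pathway members in each of 6 A375 libraries on a log axis, panobinostat (orange) left of vehicle (blue), grouped by role, with open triangles for libraries at 0 counts. WNT5A, FZD8, FZD1 and LEF1 stand lower in all 3 panobinostat libraries, DKK1, AXIN2 and many ligands that were near the floor in vehicle stand higher, and CTNNB1 overlaps.

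Promoter sequences of 4 members are shown because DKK1 and FZD8 carry the largest rise among members with over 3 vehicle counts and the largest fall, and TCF7 and LEF1 opposite changes within a family. Each runs from 250 bases before to 50 bases after an annotated start, from RefSeq (GRCh38.p14), where 35 of the 51 members matched by symbol. For each member the first window listed was used, which need not lie at the main start of the gene. The shares over RefSeq given below count every window of this length. Capitals mark a TCF/LEF core (CTTTGAT or CTTTGAA, searched on both strands) or a TATA box core (TATAAA, both strands; neither overlaps the other). DKK1 lies at chr10:52314031-52314330 on the + strand, FZD8 at chr10:35642247-35642546 on the - strand, TCF7 at chr5:134115363-134115662 on the + strand and LEF1 at chr4:108166252-108166551 on the - strand.
DKK1: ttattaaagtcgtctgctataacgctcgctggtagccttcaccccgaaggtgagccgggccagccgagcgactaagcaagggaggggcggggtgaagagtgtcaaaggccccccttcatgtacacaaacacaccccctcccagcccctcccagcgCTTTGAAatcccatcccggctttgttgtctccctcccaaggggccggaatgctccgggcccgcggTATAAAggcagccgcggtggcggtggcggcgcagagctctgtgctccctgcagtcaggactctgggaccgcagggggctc
FZD8: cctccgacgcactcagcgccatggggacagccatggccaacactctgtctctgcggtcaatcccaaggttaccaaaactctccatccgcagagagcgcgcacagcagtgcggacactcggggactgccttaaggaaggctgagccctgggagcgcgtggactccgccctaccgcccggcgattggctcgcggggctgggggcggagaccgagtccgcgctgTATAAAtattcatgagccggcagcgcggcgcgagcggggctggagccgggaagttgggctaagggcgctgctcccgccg
TCF7: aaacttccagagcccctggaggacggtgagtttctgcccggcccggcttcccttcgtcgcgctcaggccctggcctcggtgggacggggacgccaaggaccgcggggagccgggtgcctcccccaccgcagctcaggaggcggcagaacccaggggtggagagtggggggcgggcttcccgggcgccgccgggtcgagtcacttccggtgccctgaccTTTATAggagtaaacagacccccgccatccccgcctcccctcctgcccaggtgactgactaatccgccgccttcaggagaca
LEF1: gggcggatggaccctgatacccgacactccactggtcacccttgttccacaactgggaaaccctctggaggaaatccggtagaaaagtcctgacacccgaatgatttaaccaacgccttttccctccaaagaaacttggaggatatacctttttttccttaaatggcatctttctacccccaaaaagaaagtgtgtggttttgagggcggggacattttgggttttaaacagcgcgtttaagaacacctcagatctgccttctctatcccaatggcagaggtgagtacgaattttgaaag

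The DKK1 window held CTTTGAA beginning 95 bases before the start, and it was the only 1 of the 35 member windows with a TCF/LEF core (2.86%), where 6.86% of 35116 RefSeq windows of this length held one. A TATA core was present in the windows of DKK1, FZD8 and TCF7, at 30, 29 and 32 bases before the start, in TCF7 on the opposite strand. These were 3 of 35 member windows (8.57%), where 11.5% of all windows held the core. CpG counts per window varied among the ligands that rose, with 53 in WNT9A, 49 in WNT3A, 40 in WNT7A, 37 in WNT6, 20 in WNT16 and 4 in WNT8B. Those that fell had 28 in WNT3, 21 in WNT5A and 10 in WNT5B. WNT7B and WNT11, which rose, and WNT10B, which fell, had no matched window. The median over all windows was 14. A match describes letters only and is not a bound site.

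Of the 13 tested ligands 4 fell (30.8%) and 8 rose (61.5%), beside 41% and 41.8% of all genes tested. Among those that fell were WNT5A, WNT10B and WNT3, the ligands with the highest CPM in vehicle. The 8 that rose each averaged under 0.5 CPM in vehicle. Of these, 7 passed the filter on low counts through the panobinostat libraries alone, so they had to differ. The link between a low vehicle level and a rise is thus largely fixed by the filter. WNT5A, the non-canonical ligand, stood at 38.1, 36.05 and 34.3 CPM in the panobinostat libraries, against 112, 117 and 116 CPM in the vehicle libraries. The log2 change was -1.67 ± 0.05 (edgeR adjusted p = 3.3e-15), and the lowest vehicle library was well above the highest panobinostat library. WNT10B, a canonical ligand, had 1.22, 1.26 and 1.58 CPM with panobinostat, against 5.91, 5.48 and 4.33 CPM with vehicle, a log2 change of -1.96 ± 0.15. WNT3, a canonical ligand of stem cell niches, had 0.912, 1.31 and 1.39 CPM with panobinostat, against 4.72, 4.41 and 3.55 CPM with vehicle, a log2 change of -1.81 ± 0.17. In each of these 3 genes every panobinostat library lay below every vehicle library. WNT5B, the close relative of WNT5A, averaged 0.114 ± 0.0455 CPM with panobinostat and 0.34 ± 0.0261 CPM with vehicle, on 12 and 38 counts in all, and also fell (log2 change -1.54 ± 0.41). WNT5B passed the filter through the vehicle libraries alone and so had to differ.

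WNT7B, a canonical ligand of epithelia, reached 2.9, 2.79 and 3.22 CPM in the panobinostat libraries, against 0.439, 0.522 and 0.441 CPM in the vehicle libraries, a log2 change of 2.66 ± 0.18 (edgeR adjusted p = 3.12e-10). WNT9A, known from joint formation, reached 1.63, 2.11 and 1.92 CPM with panobinostat, against 0.181, 0.232 and 0.181 CPM with vehicle, a log2 change of 3.24 ± 0.25. WNT16, also known from joints and bone, was more scattered, with 1.55, 0.793 and 1.21 CPM with panobinostat and 0.206, 0.058 and 0.259 CPM with vehicle (log2 change 2.70 ± 0.37). WNT9A and WNT16 passed the filter on low counts through the panobinostat libraries alone, so their ranges had to lie apart. WNT6, WNT8B and WNT11, the last an effector of cell movements in embryos, had means of 0.591 to 0.666 CPM with panobinostat and 0.0894 to 0.124 CPM with vehicle, with log2 changes of 2.38 to 2.85.

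WNT3A and WNT7A had a total of 1 vehicle count each. WNT3A, the classical activator of beta-catenin, had 13, 25 and 10 counts in the panobinostat libraries and 0, 1 and 0 in the vehicle libraries, a ratio of 51.1 with an exact 95% interval of 8.74 to 2060. WNT7A, known from limb patterning, had 25, 29 and 16 counts with panobinostat, against 1, 0 and 0 with vehicle, a ratio of 74.5 (12.9 to 2980). These intervals cover counting error only. Of these 8 rising ligands 7 passed the filter through the panobinostat libraries alone, all but WNT7B. WNT2B averaged 1.28 ± 0.148 CPM with panobinostat and 0.992 ± 0.135 CPM with vehicle and did not pass (log2 difference 0.37 ± 0.19, edgeR adjusted p = 0.0806), although its ranges did not overlap. WNT2B passed as higher with upper quartile scaling (0.49). Its exons overlap those of ST7L on the opposite strand in GENCODE 29, and ST7L fell by 0.66 on the log2 scale.

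The other 6 ligands were not tested. WNT1, the founding member of the family, summed to 25 counts over the panobinostat libraries and 1 over the vehicle libraries, a ratio of 26.6 (4.36 to 1090). WNT4, known from kidney and gonad development, summed to 27 counts with panobinostat and 2 with vehicle, a ratio of 14.4 (3.61 to 125). In both genes every panobinostat library exceeded every vehicle library. WNT2 had 4 counts with panobinostat and 1 with vehicle, a ratio of 4.26 with an interval of 0.421 to 210 that includes no change. WNT10A had 9 counts with panobinostat and 7 with vehicle, WNT9B 1 with panobinostat and 0 with vehicle, and WNT8A 0 in both groups.

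Summed per kb of exon, so that genes of different length can be set together, the 19 ligands came to 9.03, 8.69 and 8.54 CPM per kb in the panobinostat libraries, against 19.0, 19.4 and 18.7 CPM per kb in the vehicle libraries. The lengths are merged exons of GENCODE 29, not the annotation behind the counts, so levels per kb are approximate. WNT5A made up 55.8% ± 1.42 of this sum with panobinostat and 81.5% ± 2.08 with vehicle (SD, n = 3 each), and WNT9A 5.43% ± 0.797 with panobinostat and 0.261% ± 0.0335 with vehicle. In both groups WNT5A remained the ligand with the highest level per kb, at 4.89 CPM per kb with panobinostat and 15.5 CPM per kb with vehicle.

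**Figure D2:**
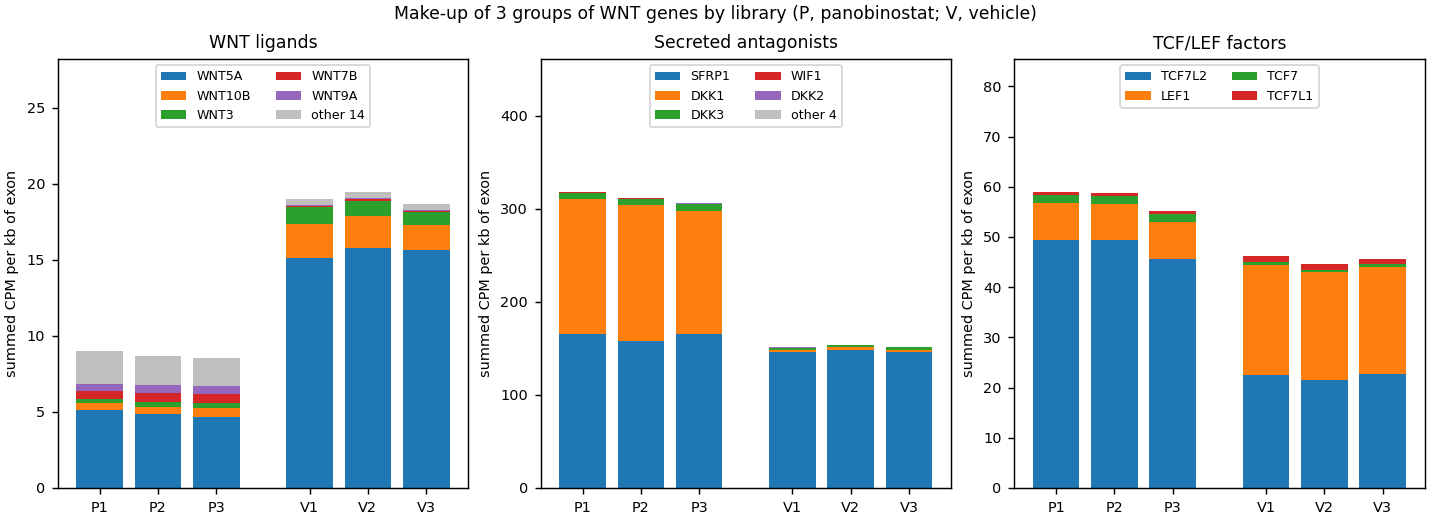
Stacked CPM per kb of exon for the 19 WNT ligands, 9 secreted antagonists and 4 TCF/LEF factors in each library (P1 to P3 panobinostat, V1 to V3 vehicle). WNT5A holds most of the ligand sum in every library and less of it with panobinostat, DKK1 joins SFRP1 with panobinostat, and TCF7L2 and LEF1 hold like shares with vehicle but TCF7L2 holds most with panobinostat.

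Of the 11 tested receptor genes 36.4% were called higher (4) and 63.6% lower (7), beside 41.8% and 41% of all genes tested, and the FZD6 call was lost in most alternative fits. The largest fall was that of FZD8, a receptor for canonical ligands that is close in sequence to FZD5. It stood at 2.82, 2.65 and 2.63 CPM in the panobinostat libraries, against 20.4, 21.2 and 18.9 CPM in the vehicle libraries, a log2 change of -2.90 ± 0.09 (edgeR adjusted p = 5.78e-15). FZD5 moved the other way and reached 14.6, 15.3 and 15.6 CPM with panobinostat, against 6.66, 6.93 and 6.69 CPM with vehicle, a log2 change of 1.17 ± 0.07. Neither gene's groups overlapped. FZD1 had 21.4, 19.5 and 19.8 CPM with panobinostat, against 65.98, 64.5 and 64.6 CPM with vehicle, a log2 change of -1.68 ± 0.05. FZD9 fell as well, to 1.1 ± 0.13 CPM with panobinostat, against 2.95 ± 0.56 CPM with vehicle.

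FZD4, which also serves as the receptor of norrin in the retinal vasculature, rose to 59.3, 58.3 and 58.9 CPM with panobinostat, against 31.3, 33.8 and 34.2 CPM with vehicle (log2 change 0.83 ± 0.05). Its exons overlap those of PRSS23 on the opposite strand in GENCODE 29, and no source used here tells if counting used strand, which leaves the FZD4 value uncertain. PRSS23 itself averaged 193 ± 2.78 CPM with panobinostat and 149 ± 7.43 CPM with vehicle, a log2 change of 0.37. FZD3, a receptor of axon guidance and planar polarity, rose to 36.7 ± 3.74 CPM with panobinostat, against 23.6 ± 3.1 CPM with vehicle (log2 change 0.64 ± 0.10).

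The Frizzleds with the highest levels per kb changed little. FZD6, which acts in planar polarity, stood at 21.9 CPM per kb with panobinostat and 23.6 CPM per kb with vehicle, and FZD7, a broad receptor of stem and tumor cells, at 16.3 CPM per kb with panobinostat and 20.1 CPM per kb with vehicle. FZD7 had a log2 change of -0.30 ± 0.05 and FZD2 of -0.28 ± 0.07, and both fell. The FZD2 call was lost with upper quartile scaling (-0.16, adjusted p = 0.0541). FZD6 had 90.7, 91.5 and 84.8 CPM with panobinostat and 92.3, 93.4 and 102 CPM with vehicle, a log2 change of -0.11 ± 0.05 (edgeR adjusted p = 0.0482). That call was lost with all 3 other scalings, the 5 CPM filter, DESeq2, limma-voom and the replicate block, and without panobinostat replicate 1 (-0.12), panobinostat replicate 3 (-0.08) or vehicle replicate 3 (-0.08), and the sign turned with upper quartile scaling (0.012). FZD10, with 6 counts over the panobinostat libraries and 0 over the vehicle libraries, was not tested.

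The co-receptors parted. LRP5 fell to 50.8, 48.5 and 52.4 CPM with panobinostat, against 92.7, 86.5 and 78.9 CPM with vehicle, a log2 change of -0.77 ± 0.06. LRP6 averaged 211 ± 6.7 CPM with panobinostat and 194 ± 5.64 CPM with vehicle and rose by a small amount, 0.12 ± 0.04 on the log2 scale (edgeR adjusted p = 0.00847). The LRP5 ranges were far apart and the LRP6 ranges nearly met. The LRP6 call was lost with no filter on low counts (0.08) and without panobinostat replicate 1 (0.10), vehicle replicate 1 (0.09) or vehicle replicate 2 (0.10).

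Among the secreted antagonists, DKK1 gave the largest change of any well-read member. DKK1, which binds LRP5 and LRP6 and blocks their pairing with Frizzled, had 320.5, 321 and 292 CPM in the panobinostat libraries, against 5.06, 6.26 and 5.75 CPM in the vehicle libraries. That is a 54.8-fold rise, 5.78 ± 0.07 on the log2 scale (edgeR adjusted p = 9.17e-20). Its lowest panobinostat library, at 292 CPM, stood far above its highest vehicle library, at 6.26 CPM. DKK1 shares exon sequence with PRKG1-AS1 on the opposite strand in GENCODE 29, which averaged 1.39 ± 0.114 CPM with panobinostat and 0.109 ± 0.034 CPM with vehicle. DKK3, a divergent Dickkopf, rose to 35.9, 36.7 and 36.8 CPM with panobinostat, against 14.2, 12.7 and 14.1 CPM with vehicle (log2 change 1.41 ± 0.06). DKK2 averaged 0.808 ± 0.172 CPM with panobinostat and 1.002 ± 0.309 CPM with vehicle, with overlapping ranges, and did not pass (log2 difference -0.32 ± 0.25, edgeR adjusted p = 0.243).

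SFRP1, a decoy with a Frizzled-like domain, had the highest level per kb of all 51 members in both groups, at 163 CPM per kb with panobinostat and 146.5 CPM per kb with vehicle. It had 785, 752.5 and 789 CPM with panobinostat and 693, 705 and 695 CPM with vehicle, a rise of 1.11-fold (log2 change 0.15 ± 0.03). SFRP5, a related decoy, fell to 1, 3 and 3 counts with panobinostat, against 15, 11 and 12 counts with vehicle (log2 change -2.29 ± 0.47). SFRP5 passed the filter through the vehicle libraries alone and so had to differ. WIF1, which binds WNT proteins directly, had 17, 28 and 18 counts with panobinostat and 0, 1 and 1 with vehicle, a ratio of 33.5 (8.9 to 283). WIF1 passed the filter through the panobinostat libraries alone and so had to differ as well. SFRP4 summed to 17 counts with panobinostat and 1 with vehicle, a ratio of 18.1 (2.83 to 756), and was not tested. SFRP2 had 1 count with panobinostat and 0 with vehicle, and DKK4 had 0 in both.

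In CPM per kb the 9 antagonists summed to 318, 311 and 306 in the panobinostat libraries, against 151, 154 and 152 in the vehicle libraries. DKK1 made up 45.2% ± 1.8 of that sum with panobinostat and 1.69% ± 0.162 with vehicle, and SFRP1 52.3% ± 1.73 with panobinostat and 96.2% ± 0.115 with vehicle (SD, n = 3 each). DKK1 stood at 141 CPM per kb with panobinostat and 2.58 CPM per kb with vehicle, where SFRP1 stood at 163 CPM per kb with panobinostat and 146.5 CPM per kb with vehicle.

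The ligases that clear Frizzleds from the membrane were both called higher, where 41.8% of all genes tested were. RNF43 had 55, 49 and 51 counts in the panobinostat libraries, against 1, 0 and 0 in the vehicle libraries, a ratio of 165 with an exact 95% interval of 29.2 to 6560 that covers counting error only. RNF43 passed the filter through the panobinostat libraries alone and so had to differ. Its level was still low, at 1.48 ± 0.124 CPM with panobinostat. In GENCODE 29 RNF43 shares 4326 exon bases with AC004687.2 on the same strand and 1521 with TSPOAP1-AS1 on the opposite strand, neither of them a line of the count table. It also shares 143 with SUPT4H1 on the same strand, a gene at 92.3 ± 4.77 CPM with panobinostat and 71.5 ± 1.38 CPM with vehicle. ZNRF3, its relative, stood at 21.8, 21.1 and 21.2 CPM with panobinostat, against 15.0, 16.98 and 16.3 CPM with vehicle, a rise of 1.33-fold (log2 change 0.41 ± 0.06). The ranges of ZNRF3 were apart, and those of RNF43 had to be through the filter.

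CTNNB1, which encodes beta-catenin, had 578, 574 and 577 CPM in the panobinostat libraries and 571, 573 and 580.1 CPM in the vehicle libraries. The ranges overlapped and the gene did not pass (log2 difference 0.0043 ± 0.0323, edgeR adjusted p = 0.906). It passed as higher with upper quartile scaling (0.12), which shifted all genes by a median of 0.12. It also passed as higher with the 5 CPM filter (0.10), which shifted all genes by a median of 0.09. Its regulators moved in both directions. AXIN1, the constitutive scaffold of the destruction complex, fell to 19.5, 20.7 and 20.98 CPM with panobinostat, against 31.6, 32.5 and 29.03 CPM with vehicle (log2 change -0.60 ± 0.06). AXIN2, the inducible scaffold and a widely used readout of beta-catenin signaling, rose to 9.17, 8.78 and 9.93 CPM with panobinostat, against 0.413, 0.956 and 0.648 CPM with vehicle. That is a 13.9-fold rise, 3.80 ± 0.16 on the log2 scale (edgeR adjusted p = 8.23e-13), yet AXIN2 stayed below AXIN1 per kb, at 1.78 against 2.73 CPM per kb with panobinostat. AXIN2 shares 1316 exon bases on the same strand with AC004805.1 in GENCODE 29, which is no line of the count table.

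NKD1, a target gene whose product binds Dishevelled and dampens the signal, rose to 12.04, 12.8 and 12.1 CPM with panobinostat, against 2.81, 3.22 and 2.33 CPM with vehicle (log2 change 2.15 ± 0.10). NKD2 rose to 1.01 ± 0.0754 CPM with panobinostat, against 0.58 ± 0.176 CPM with vehicle, a log2 change of 0.82 ± 0.24. The panobinostat and vehicle ranges of both NKD genes were apart.

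Of the 4 TCF/LEF factors, which bring beta-catenin to DNA, 2 rose (50%) and 2 fell (50%), beside 41.8% and 41% of all genes tested. TCF7L2 rose to 332.5, 333 and 307 CPM with panobinostat, against 152, 145 and 152.5 CPM with vehicle, a log2 change of 1.11 ± 0.04 (edgeR adjusted p = 8.9e-14). TCF7 rose to 16.5, 16.03 and 17.6 CPM with panobinostat, against 6.2, 5.48 and 5.78 CPM with vehicle (log2 change 1.52 ± 0.08). TCF7 shares 210 exon bases with SKP1 on the opposite strand in GENCODE 29, and SKP1 averaged 233 ± 6.27 CPM with panobinostat and 235 ± 11.5 CPM with vehicle. LEF1, a factor tied to melanocyte differentiation in melanoma and itself a common target of the pathway, stood at 39.6, 37.9 and 38.99 CPM with panobinostat, against 117, 115 and 115 CPM with vehicle. Its log2 change was -1.57 ± 0.04 (edgeR adjusted p = 1.64e-15). TCF7L1, mostly a repressor, fell to 2.38, 2.46 and 2.48 CPM with panobinostat, against 5.42, 4.87 and 4.51 CPM with vehicle (log2 change -1.02 ± 0.12).

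The make-up of the family shifted with these changes. TCF7L2 held 83.6% ± 0.874 of the summed CPM per kb with panobinostat and 48.9% ± 0.7 with vehicle, and LEF1 held 12.6% ± 0.603 with panobinostat and 47.4% ± 0.643 with vehicle (SD, n = 3 each). TCF7 held 2.88% ± 0.242 with panobinostat and 1.27% ± 0.0557 with vehicle. The shares of TCF7L2 and LEF1 were near each other in the vehicle libraries and far apart in the panobinostat libraries.

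**Figure D3:**
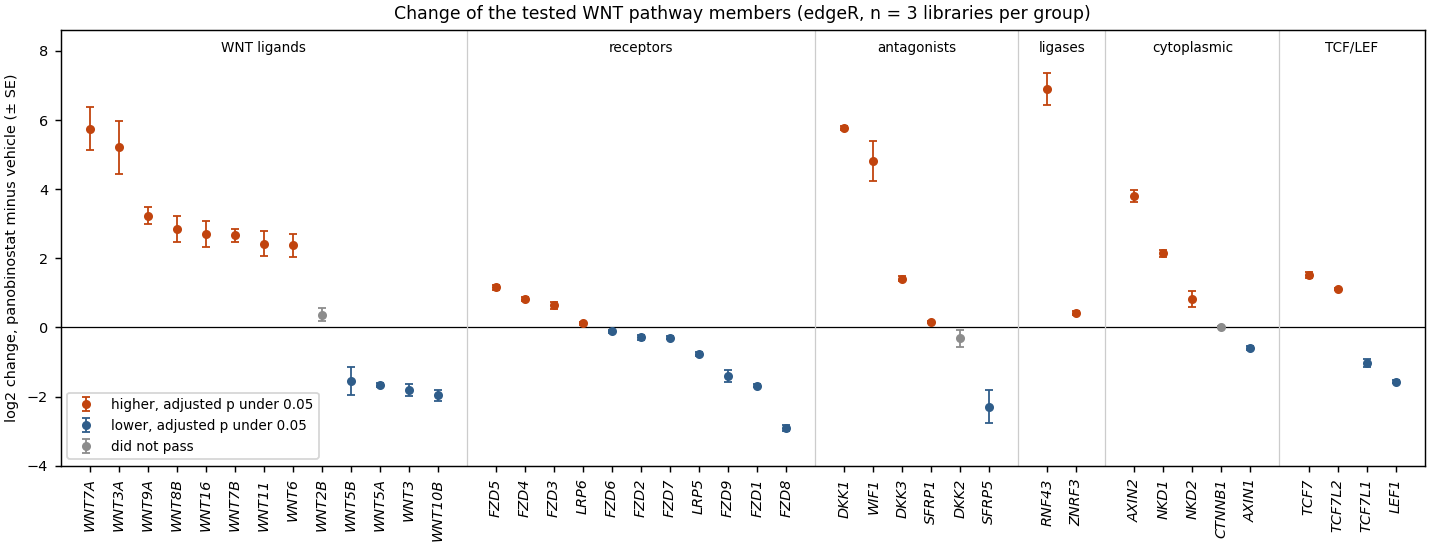
Log2 change (panobinostat minus vehicle, ± SE from edgeR) of the 41 tested members by role, with 23 higher, 15 lower and 3 that did not pass. The values of RNF43, WNT7A, WNT3A and WIF1 rest on 1 or 2 vehicle counts and depend on the fitting. Receptors span from FZD8 (-2.90) to FZD5 (1.17).

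The rest of the pathway, 130 further genes in 7 lists of which 117 were tested, moved in both directions. Over the 6 lists other than the R-spondins and LGR receptors, 38.9% to 55.6% of the tested genes of a list were called higher and 23.1% to 50% lower, beside 41.8% and 41% of all genes tested. R-spondins and their LGR receptors, which protect Frizzleds from RNF43 and ZNRF3, were called higher in all 5 tested genes of 7, where 41.8% of all genes tested were. Of these 5, 4 (all but LGR4) passed the filter through the panobinostat libraries alone and so had to differ, which largely fixes that count and the median log2 change of 3.15. LGR6 had 1.49, 1.56 and 1.42 CPM with panobinostat, against 0.0258, 0 and 0.0259 CPM with vehicle. LGR5, a stem cell marker, averaged 0.526 ± 0.0539 CPM with panobinostat and 0.0807 ± 0.0263 CPM with vehicle. RSPO4 rose to 0.98 ± 0.0917 CPM with panobinostat, against 0.108 ± 0.0072 CPM with vehicle, and RSPO3 had 11, 13 and 9 counts with panobinostat and 0 in each vehicle library, at least 3.9-fold higher when vehicle is set to the floor of 3 counts a library. LGR4, the LGR receptor with the highest counts, rose 1.25-fold to 25.4 ± 1.04 CPM with panobinostat, against 20.2 ± 2.15 CPM with vehicle. RSPO1, with 33 counts with panobinostat and 0 with vehicle, and RSPO2, with 12 with panobinostat and 1 with vehicle, were not tested.

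Of 10 genes of WNT secretion 4 rose and 3 fell, with a median log2 change of 0.11. WLS, the carrier of WNT proteins to the surface, had a log2 change of -0.30 ± 0.04, and PORCN, which adds their lipid, of 0.29 ± 0.08. NOTUM, an enzyme that removes that lipid, averaged 0.616 ± 0.106 CPM with panobinostat and 0.101 ± 0.0644 CPM with vehicle, a log2 change of 2.61 ± 0.40. NOTUM passed the filter through the panobinostat libraries alone, and SHISA3, named below, through the vehicle libraries alone. The retromer subunits VPS26A and VPS35 had log2 changes of 0.46 ± 0.05 and -0.20 ± 0.04, the cargo receptor TMED5 of -0.72 ± 0.11 and the WNT protease TRABD2A of 0.81 ± 0.18. The VPS35 call was lost with upper quartile scaling (-0.09), and TRABD2B, VPS29 and SNX3 did not pass. With upper quartile scaling these 3 passed as higher (0.31, 0.16 and 0.11), as did TRABD2B (0.28) and VPS29 (0.14) with the 5 CPM filter and TRABD2B without vehicle replicate 1 (0.27). Among other extracellular and membrane modulators 4 of 10 tested (of 14) rose and 5 fell, with a median of 0.17. KREMEN1 and KREMEN2, receptors of Dickkopf proteins, rose 1.42-fold and 1.86-fold, and TPBG, an inhibitor at the membrane, rose 2.01-fold. SHISA2 and SHISA3, which hold Frizzleds inside the cell, had log2 changes of -1.26 ± 0.05 and -2.77 ± 0.36. CTHRC1, a secreted cofactor of non-canonical WNT signaling, fell to 14.4 ± 0.046 CPM with panobinostat, against 98.4 ± 11.6 CPM with vehicle.

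Within the destruction complex and Dishevelled list 11 of 26 tested genes rose and 6 fell, with a median of -0.01. GSK3B, the kinase that marks beta-catenin, stood at 214, 209 and 204 CPM with panobinostat, against 430.4, 441 and 454 CPM with vehicle, a log2 change of -1.08 ± 0.04 (edgeR adjusted p = 2.76e-14). AMER1, a partner of APC at the membrane, and BTRC, the ligase adaptor for beta-catenin, fell, with log2 changes of -1.44 ± 0.08 and -0.57 ± 0.06. DACT3 and CXXC4, which restrain Dishevelled, rose 6.57-fold and 2.72-fold, and APC2 rose 4.83-fold. Of 18 nuclear cofactors 7 rose and 8 fell (median -0.07). The corepressor TLE4 rose 2.16-fold and the coactivators BCL9L and PYGO2 rose as well, with log2 changes of 1.30 ± 0.05 and 0.53 ± 0.04. AES, a short relative of the TLE proteins, and CTNNBIP1, which keeps beta-catenin off TCF, fell, with log2 changes of -1.52 ± 0.04 and -1.44 ± 0.05, and the corepressor CTBP2 fell with -0.86 ± 0.04.

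Of 21 tested genes of planar polarity and other non-canonical branches 11 rose and 6 fell, with a median of 0.23. The formin DAAM2 fell to 14.3 ± 0.8 CPM with panobinostat, against 92.2 ± 1.89 CPM with vehicle, while its relative DAAM1 rose 2.71-fold. VANGL2 and CELSR1, membrane proteins of planar polarity, fell, with log2 changes of -1.31 ± 0.07 and -0.91 ± 0.05. PRICKLE2, their cytoplasmic partner, rose 2.38-fold, and the ubiquitin ligase SMURF2 had a log2 change of 0.81 ± 0.04. The 32 genes listed as beta-catenin and TCF targets, mostly of other tissues, gave 27 tested genes, 15 of them higher and 10 lower (median 0.19). CCND1, the cyclin that drives entry into S phase, stood at 215, 205 and 224.5 CPM with panobinostat, against 601, 596 and 577 CPM with vehicle, a log2 change of -1.46 ± 0.04. POU3F2, a factor of neural and melanoma cells, fell, with a log2 change of -2.38 ± 0.06. The adhesion molecules L1CAM and NRCAM moved apart, with L1CAM at 279 ± 9.53 CPM with panobinostat and 51.4 ± 2.31 CPM with vehicle and NRCAM lower by a log2 change of -1.15. ABCB1, a drug efflux pump, rose 7.22-fold and ID2 20.5-fold.

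**Figure D4:**
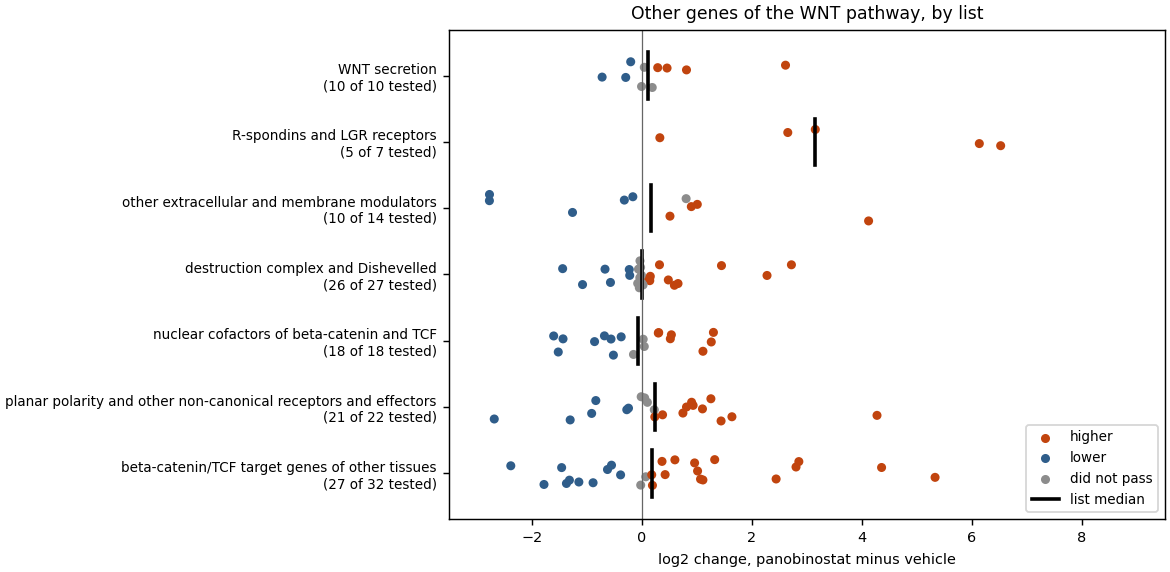
Log2 change (panobinostat minus vehicle) of the tested genes in 7 further lists of the WNT pathway, 1 point a gene, coloured by call, with the list median as a bar. R-spondins and LGR receptors lie above 0 in all 5 tested cases, with RSPO3 and LGR6 fitted from 0 and 2 vehicle counts, and the other 6 lists spread to both sides.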

How the data were processed

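Bulk RNA of 6 A375 libraries was analysed from the authors' deposited table of raw counts per gene symbol. STAR is named only in that table's name. Its version, genome build, annotation and strand use were all not given in the sources used here. The 92 spike-in lines, all at 0, were left out of 25435 lines. Genes passed filterByExpr (minimum count 10, here 0.277 CPM in enough libraries), were TMM-scaled and entered edgeR's quasi-likelihood fit on group alone, called at a Benjamini-Hochberg adjusted p under 0.05 over all genes tested. An SE is the log2 change divided by the root of F. Exon lengths came from GENCODE 29 and promoters from RefSeq. Members with totals of 1 to 3 vehicle counts were given as ratios with exact conditional 95% intervals. Among further genes and markers this was done for DRAXIN alone. The steps were tested on simulated data. Members and lists were chosen with earlier results of these data known. All tested members were named, and from lists over 10 genes up to 3 called genes per direction with the smallest adjusted p. Alternatives were other scalings, filters and tools, a replicate block and leaving out each library. Tools were edgeR 4.0.16, DESeq2 1.42.0 and limma 3.58.1 in R 4.3.3, and matplotlib 3.10.9 in Python 3.11.15.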

Additional observations from a re-analysis of the deposited data

How the results depend on the processing

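Of 38 called members 35 kept their call and direction in each of the 14 alternative fits that tested them, all but FZD2, FZD6 and LRP6, and 41 of 42 named called context genes did so, all but VPS35. Only the filter of 5 CPM in 3 libraries moved the counts by over 1.5 times: 22 members were then tested, with 13 higher, 8 lower, 7 at least 2-fold higher and 4 at least 2-fold lower, because members at low counts were not tested. With upper quartile scaling 25 members were higher and 13 lower, and 57.3% of all calls were higher. Members that changed sign were FZD6 (0.012 under upper quartile scaling) and CTNNB1 (-0.040 without a low-count filter), and the log2 change of CTNNB1 ranged from -0.0175 to 0.0055 over the fits without 1 library. Of the genes that did not pass, SNX3 turned to 0.010 under RLE, 0.0082 under library size only, 0.010 in DESeq2, 0.11 under upper quartile and 0.087 under the 5 CPM filter, and ranged from -0.071 to 0.015 without 1 library. VPS29 was -0.0014 without a low-count filter and ranged from -0.0176 to 0.081 without 1 library. The cause was not tested. Replicate numbers follow accession order and do not pair the libraries (same-number deviations correlated at -0.14 to -0.06), and a replicate block gave 23 members higher and 14 lower. Of the 10 members left out by the filter 8 were tested with no filter (49 members tested, 26 higher and 15 lower), and WNT8A and DKK4 had 0 counts in all libraries.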

Other observations

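Some further genes of the pathway lists, outside the naming rule, were chosen here after their values were seen. ROR2, a receptor of WNT5A, averaged 2.48 ± 0.249 CPM with panobinostat and 0.125 ± 0.0267 CPM with vehicle, a log2 change of 4.27 ± 0.25. It had 6, 4 and 4 vehicle counts and passed the filter through the panobinostat libraries alone, so it had to differ. The related ROR1 averaged 21.1 ± 0.657 CPM with panobinostat and 9.85 ± 0.368 CPM with vehicle, and RYK, another WNT receptor, 109 ± 1.11 CPM with panobinostat and 132 ± 9.83 CPM with vehicle. SOX9, a factor of neural crest and cartilage, rose to 10.2 ± 0.809 CPM with panobinostat, against 0.252 ± 0.0421 CPM with vehicle (log2 change 5.33 ± 0.16), and MSX2, a homeobox factor, to 39.2 ± 2.01 CPM, against 5.62 ± 0.368 CPM with vehicle. DRAXIN, a secreted inhibitor with a role in axon guidance, had 55 counts over the panobinostat libraries and 3 over the vehicle libraries, a ratio of 19.5 (6.34 to 97.5) with its exact 95% interval for counting error, and likewise passed the filter through the panobinostat libraries alone.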
